A study of Rattus norvegicus with 6 samples.

Results

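The complement genes described here are C3, C1s, C1r, C2, Cfb, Cfd, Serping1, Cd55 and Cd59, chosen by gene symbol from a table of 16770 genes. All 9 were found. RNA sequencing of cells grown out of pieces of proximal aorta compared the spontaneously hypertensive rat (SHR) with the normotensive Wistar Kyoto rat (WKY), both inbred strains, at 3 months of age. No group carried a transgene or received a drug, and all cells were kept in the same endothelial medium with serum and growth supplement. Each strain gave 3 libraries. Replicates 1 and 2 of each strain are labelled batch 1 and replicate 3 of each strain batch 2, so batch 2 holds 1 library per strain. The labels do not say whether libraries of a strain came from separate animals, so p-values measure only the spread between these libraries.

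Complement is a cascade of blood and tissue proteins that marks surfaces for clearance and can open pores in membranes. In the classical pathway the serine proteases C1r and C1s cut C4 and C2, and in the alternative pathway factor D (Cfd) cuts factor B (Cfb); both routes build convertases that cleave C3. C1 inhibitor (Serping1) blocks C1r and C1s, CD55 takes convertases apart and CD59 stops the terminal pore. The liver supplies most of these proteins to plasma, while fibroblasts, endothelial cells and macrophages also make many of them locally.

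Depth was similar, with 18462032 to 19947286 estimated counts per library. A count of 0 allows up to 3 counts, or 0.151 to 0.187 CPM in a library, by counting error alone. CPM is the count scaled to a common library total. The cells were labelled endothelial, but several defining endothelial transcripts were close to absent. Cdh5 had at most 2 counts in any library, Tie1 at most 1 and Pecam1 between 2 and 42. Of 12 endothelial markers listed 9 were in the table, and they summed to 18.5 to 23.8 CPM in WKY and 19.5 to 37.4 CPM in SHR, led by Egfl7 (6.39 to 27.2 CPM). Tek, the angiopoietin receptor gene, was higher in every SHR library (90 to 184 counts) than in any WKY library (7 to 35 counts), with a log2 fold change of 3.00 (SE 0.63, edgeR adjusted p = 0.182). The 12 fibroblast markers summed to 6098 to 16915 CPM in WKY and 14930 to 24571 CPM in SHR, with SHR replicate 3 highest, and none was at 0 in any library. SHR replicate 3 stands apart for the complement genes too, so edgeR results by strain and batch are given with and without it.

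In SHR replicate 3, 7 of the 9 genes reached their highest level. C3 peaked in WKY replicate 1 and Cd55 in SHR replicate 2. Among the 8 genes abundant enough to be tested 6 were highest in SHR replicate 3, against 23.6% of all 12614 genes tested. The untested gene was Cfd. Values follow the order of replicates 1, 2 and 3, with TMM-scaled library sizes. They compare libraries for a gene and not genes with each other, since gene length is not accounted for. In bulk RNA, fewer cells of a type and less RNA per cell cannot be told apart.

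**Figure D1:**
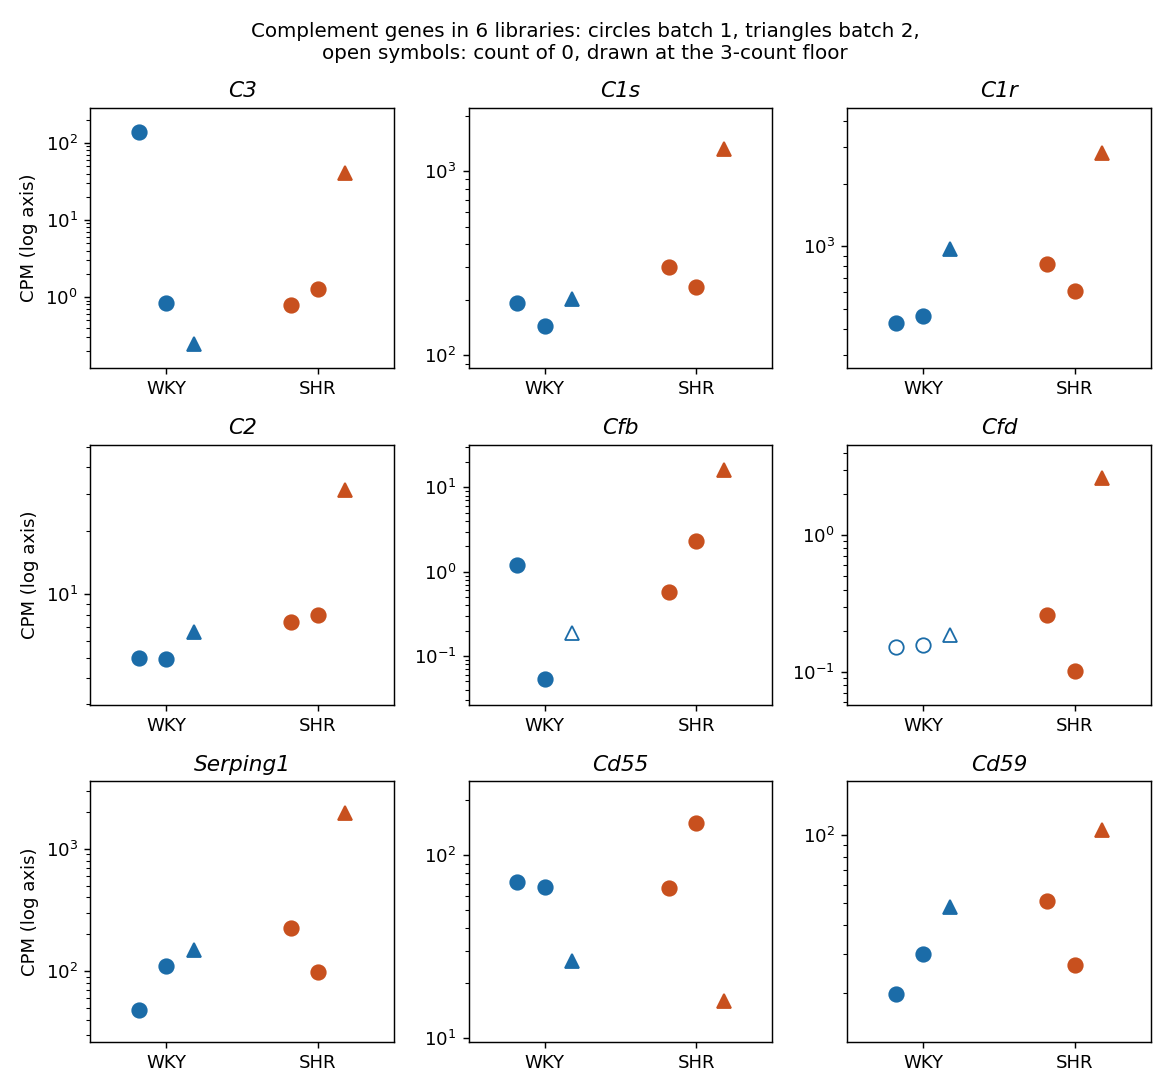
Level of each complement gene in the 6 libraries, in CPM on a log axis, with WKY in blue and SHR in orange. Circles are batch 1 libraries, triangles are batch 2 libraries, and open symbols are counts of 0 drawn at the level of 3 counts. SHR replicate 3 (orange triangle) is highest in 7 panels, C3 is highest in WKY replicate 1 at 140 CPM, and Cd55 is lowest in both triangles.

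C1r, the protease that starts the classical cascade, had 428, 461 and 964 CPM in WKY and 820, 607 and 2816 CPM in SHR. The strains overlapped, because WKY replicate 3 lay above both batch 1 SHR libraries. Within each batch, however, every SHR library exceeded every WKY library. The fitted log2 fold change was 0.97 (SE 0.26), or 1.96-fold higher in SHR, with an adjusted p of 0.249 in the edgeR quasi-likelihood test. It was 0.67 on the log2 CPM scale within batch 1 and 1.55 between the 2 libraries of batch 2.

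C1s, the partner protease that cuts C4 and C2, had 191, 143 and 202 CPM in WKY and 303, 235 and 1320 CPM in SHR. Here the strains did not overlap, and SHR replicate 3 was 4.36 times the next highest library. The log2 fold change was 1.33 (SE 0.48, edgeR adjusted p = 0.347). Within batch 1 the difference was 0.69, against 2.71 between the batch 2 libraries. C2, the protease precursor that joins C4 in the classical convertase, had 4.998, 4.92 and 6.59 CPM in WKY and 7.40, 7.95 and 31.1 CPM in SHR. As for C1s, all SHR libraries lay above all WKY libraries, by a small margin outside SHR replicate 3. Its log2 fold change was 1.16 (SE 0.37, edgeR adjusted p = 0.292).

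C3, the central protein of every complement route, had 140, 0.85 and 0.25 CPM in WKY and 0.79, 1.27 and 40.7 CPM in SHR. Its counts were 2769, 16 and 4 in WKY and 15, 25 and 783 in SHR. Thus 1 library of each strain carried the transcript at a substantial level, WKY replicate 1 in batch 1 and SHR replicate 3 in batch 2, and the other 4 libraries held 4 to 25 counts. WKY replicate 1 had 165 times the CPM of WKY replicate 2, and SHR replicate 3 had 164 times that of WKY replicate 3. The fitted strain difference therefore had a wide error (log2 fold change -4.00, SE 4.23, edgeR adjusted p = 0.721). It was 2.84 without WKY replicate 1 and 0.35 with the replicate number as a block, so its direction was not settled. Within batch 1 the difference in log2 CPM was -3.38, and between the batch 2 libraries it was 6.84.

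The library with the highest C3 also held the highest levels of several cytokine-responsive transcripts, which are named here after their values were seen. The siderophore-binding protein gene Lcn2 had 697 CPM in WKY replicate 1 and 0.46 to 14.2 CPM elsewhere, with SHR replicate 3 in the second place, as for C3. The chemokine gene Cxcl1 had 335 CPM in WKY replicate 1 and 1.06 to 8.26 CPM elsewhere. Unlike Lcn2, Cxcl1 was low in SHR replicate 3 (2.03 CPM), as was the chemokine gene Ccl2 (4.57 CPM). The 20 genes of the cytokine-responsive list summed to 926 to 2881 CPM in WKY and 946 to 2113 CPM in SHR. WKY replicate 1 had the highest sum, but without Lcn2, Cxcl1 and the chemokine gene Ccl2 (599 CPM there) the other 17 genes summed to 1250.03 CPM in it, near the 1226 CPM of WKY replicate 3. SHR replicate 3 had 2092 CPM on those 17 genes. Of the 19 tested genes, 5 were highest in WKY replicate 1 and 7 in SHR replicate 3. Over all 12614 genes tested, 2204 were highest in WKY replicate 1 and 2972 in SHR replicate 3. Of the 3 most abundant genes of that list, Cebpd, a transcription factor induced in the acute phase, had 170, 86.8 and 150 CPM in WKY and 151, 110 and 599 CPM in SHR. Cebpb, its relative, reached 388 and 539 CPM in the batch 2 libraries against 159 to 190 CPM in batch 1. Stat3, a transcription factor of interleukin-6 signalling, lay between 147 and 290 CPM. Of the 19 tested members of this list 0 were called between strains by edgeR, and 1 (Psmb8) had an unadjusted p below 0.05, higher in SHR, as did 6.10% of all genes. Whether these transcripts had a part in the C3 levels was not tested.

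The promoters of C3 and C1r are shown because both genes were high in SHR replicate 3 while C1r, unlike C3, had a substantial level in every library. Of the 9 genes, 4 matched the RefSeq promoter table of the GRCr8 assembly by gene identifier (C3, C1r, Cfd and Cd55). The 250 bases before each transcript start follow, 5′ to 3′ on the strand of the gene, with matches to the motifs searched in capitals. C3 lies at chr9:2201340-2201589 on the minus strand and C1r at chr4:159098763-159099012 on the plus strand.
C3: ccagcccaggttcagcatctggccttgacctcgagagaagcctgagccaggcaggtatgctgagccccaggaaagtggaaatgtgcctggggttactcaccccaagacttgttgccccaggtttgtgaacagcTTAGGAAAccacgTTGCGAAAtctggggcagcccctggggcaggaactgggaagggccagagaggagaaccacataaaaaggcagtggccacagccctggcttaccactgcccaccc
C1r: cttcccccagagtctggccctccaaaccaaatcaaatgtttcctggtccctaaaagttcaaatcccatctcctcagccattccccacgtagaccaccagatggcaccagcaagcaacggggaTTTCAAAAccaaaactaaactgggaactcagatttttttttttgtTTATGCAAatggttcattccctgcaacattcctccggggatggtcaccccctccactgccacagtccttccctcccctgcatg

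Both strands were searched for C/EBP (TTNCNNAA), STAT (TTCNNNGAA), NF-kB (GGANTTTCC), interferon response (GAAANNGAA), Sp1 (GGGCGG) and core promoter (TATAAA) letters. The C3 sequence held 2 C/EBP matches, 117 to 110 and 104 to 97 bases before the start, and the C1r sequence held 2, at 128 to 121 and 83 to 76 bases. No 2 matches overlapped within either sequence. C/EBP letters occur in 37.2% of the 33469 promoters of the table over the same length, so the match is common. The upstream sequence of Cfd held 1 Sp1 match and that of Cd55 held 3 (the pair nearest the start overlapping by 1 base), a motif found in 30.5% of promoters. The STAT, NF-kB, interferon response and core promoter letters, found in 7.67%, 1.08%, 8.12% and 12.9% of promoters, were not in these windows. A match describes letters only and was not tested for binding.

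Cfb, the convertase protease of the alternative pathway, had 1.21, 0.05 and 0 CPM in WKY and 0.58, 2.29 and 16.2 CPM in SHR. WKY replicate 1 again lay above WKY replicates 2 and 3, which held 1 and 0 counts, and SHR replicate 3 was 7.05 times the next library. The log2 fold change was 2.74 (SE 1.90, edgeR adjusted p = 0.593). Cfd, the protease that activates factor B and is best known from fat cells, had 0 counts in all 3 WKY libraries and 5, 2 and 50 counts in SHR. Over the group, the 57 SHR counts were at least 17.98-fold higher than the 3 counts that WKY could hide, by counting error. Without SHR replicate 3 only 7 SHR counts remained. Cfd was too low for the edgeR test.

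Serping1, which encodes C1 inhibitor, had 47.6, 109 and 148 CPM in WKY and 225, 98.5 and 1974 CPM in SHR. The batch 1 libraries of the strains overlapped, while SHR replicate 3 was 8.77 times the next highest library and 13.4 times WKY replicate 3. The log2 fold change was 1.89 (SE 0.77, edgeR adjusted p = 0.389), with 1.05 in log2 CPM within batch 1 and 3.74 between the batch 2 libraries. Inhibitor and target proteases thus had their highest level in the same library.

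Cd55, the membrane protein that dissociates convertases, went against the other genes. It had 71.8, 67.1 and 26.4 CPM in WKY and 65.9, 151 and 16.1 CPM in SHR, so that both batch 2 libraries lay below all batch 1 libraries. Between strains the log2 fold change was 0.21 (SE 0.43, edgeR adjusted p = 0.868), and -0.34 without SHR replicate 2. Cd59, the membrane inhibitor of the terminal pore, had 19.99, 29.8 and 48.1 CPM in WKY and 50.97, 26.7 and 105 CPM in SHR. Its strains overlapped, and the log2 fold change was 0.81 (SE 0.31, edgeR adjusted p = 0.362).

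Taking the 9 genes by strain, edgeR called 0 of the 8 tested. Among all genes tested it called 0.103% higher and 0.151% lower in SHR. At an unadjusted p below 0.05, 4 of the 8 were higher in SHR (C1r, C1s, C2 and Cd59) and 0 lower, against 6.10% and 7.18% of all genes. Strains did not overlap in 2 of the 8, C1s and C2, both higher in SHR, compared with 4.51% of all genes higher and 5.30% lower. DESeq2 called 4 of the 9 higher in SHR (C1r, C1s, Serping1 and Cfd) and 0 lower, where 2.68% of all genes were higher. Its adjusted p was 0.0437 for C1s, 0.0482 for Serping1 and 0.0445 for Cfd. DESeq2 was fitted only with all libraries, so these calls have no version without SHR replicate 3. For Cfd, edgeR without the low-count filter gave an adjusted p of 0.238. The edgeR log2 fold change was positive in 7 of the 8 tested, with a median of 1.07, and the median of all genes tested was -0.02. Leaving out SHR replicate 3, edgeR again called 0 of 8. Without that library the log2 fold change of C1s was 0.69 (SE 0.22) in place of 1.33, that of Serping1 1.05 (SE 0.60) in place of 1.89 and that of C2 0.63 (SE 0.25) in place of 1.16. C1r moved less, to 0.68 (SE 0.21), and Cd59 stood at 0.64 (SE 0.39) and Cfb at 1.17 (SE 1.33). Leaving out WKY replicate 3 gave nearly the same values (C1s 0.69, Serping1 1.05, C2 0.63 and C1r 0.68), because with a batch term the loss of either batch 2 library leaves only batch 1 to compare strains. These fits therefore cannot tell which batch 2 library made the shift. By level, SHR replicate 3 was 4.36 times the next highest library for C1s and 8.77 times for Serping1.

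**Figure D2:**
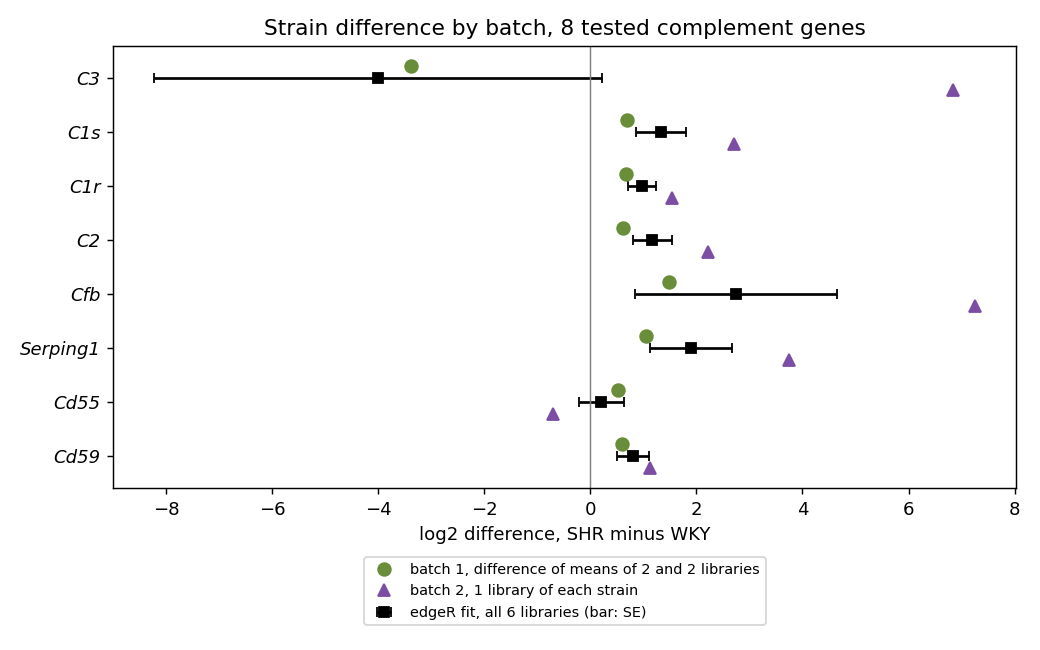
Difference between SHR and WKY for the 8 tested complement genes, on a log2 axis. Black squares are the edgeR fit over all libraries with its SE, green circles the difference within batch 1 and purple triangles that between the 2 libraries of batch 2. The triangle lies to the right of the circle for every gene except Cd55 (-0.71 against 0.52), and for C3 the signs are opposite (-3.38 and 6.84).

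The strain difference was larger in batch 2 than in batch 1 for 7 of the 8 tested genes, and the fitted interaction was positive for 5982 of all 12614 genes. For C1s the interaction of strain and batch was 2.03 on the log2 scale (SE 0.40) and for C2 it was 1.61 (SE 0.35). edgeR called 0 of the 8 for this interaction, with 0% of all genes called, and these 2 had an unadjusted p below 0.05, as did 12.7% of all genes. DESeq2 called 2, C3 and C1s, against 3.48% of all genes. With 1 library of each strain in batch 2 and 2 residual degrees of freedom, the interaction rests on SHR replicate 3 and WKY replicate 3.

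Between batches, with strain held constant, edgeR called 3 of the 8 higher in batch 2 and 1 lower, while 21.0% of all genes were called higher and 22.5% lower. C1r rose by 1.57 (SE 0.26, adjusted p = 0.00687), C2 by 1.30 (SE 0.37, adjusted p = 0.0352) and Cd59 by 1.204 (SE 0.31, adjusted p = 0.0271). Cd55 fell by 2.02 on the same log2 scale (SE 0.50, adjusted p = 0.0259). Serping1 (2.48, SE 0.79, adjusted p = 0.0533) and C1s (1.40, SE 0.49, adjusted p = 0.0652) did not pass. Without SHR replicate 3, only WKY replicate 3 is left in batch 2, so effect sizes alone are given. The batch difference was then 1.12 for C1r, 0.41 for C2, 0.95 for Cd59 and -1.40 for Cd55. Without WKY replicate 3, which leaves only SHR replicate 3 in batch 2, it was 1.97, 2.01, 1.43 and -2.76 for the same genes.

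The rest of the pathway was examined in a list of 46 further complement genes, of which 38 were in the table and 19 could be tested. Genes of C1q, the recognition part of the first component, were close to absent, with 0 counts of C1qa in every library and 1 count of C1qc in all. C5 and the receptor gene C5ar1 had 0 counts throughout. Among the 19 tested genes edgeR called 0 between strains. At an unadjusted p below 0.05, 6 were higher in SHR and 2 lower, against 6.10% and 7.18% of all genes, and the median log2 fold change was 0.48. DESeq2, which kept 30 of the listed genes, called 5 higher (C1rl, C4a, C4b, C6 and C7) and 0 lower. Over all 13995 genes with a DESeq2 adjusted p, 2.68% were called higher. Some of the 30, such as C9 and Cr2, had no adjusted p, so the 2 shares do not have the same base. C4a and C4b, in both counts of higher genes, are near-identical copies and so are not independent of each other.

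C7, a component of the membrane pore, showed the largest strain difference of these 19 genes. It had 0.25, 2.80 and 14.1 CPM in WKY and 184, 84.2 and 2353 CPM in SHR, with no overlap in either batch. Its log2 fold change was 6.81 (SE 0.92) and missed the threshold in edgeR (adjusted p = 0.0961). Over 13 alternatives the fold change lay between 4.11 and 7.97, and the adjusted p between 3.22e-09 with DESeq2 and 0.919. Within batch 1 the log2 CPM difference was 6.93 and between the batch 2 libraries 7.38, so for this gene the batches gave similar values. C6, the pore component that binds before it, had 4.49, 3.86 and 12.6 CPM in WKY and 18.3, 7.14 and 49.95 CPM in SHR. The strains overlapped, and the log2 fold change was 1.73 (SE 0.37, edgeR adjusted p = 0.197).

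C1rl, a protease gene related to C1r, had 3.79, 3.91 and 7.83 CPM in WKY and 11.5, 8.77 and 32.3 CPM in SHR, without overlap. Its log2 fold change was 1.62 (SE 0.22, edgeR adjusted p = 0.0878). C4a and C4b, outside the naming rule and given because C4 is the substrate of C1s, are near-identical copies whose reads can be given to either, so their counts were added. The sum was 0.77, 1.197 and 1.47 CPM in WKY, all below the 3.82, 4.89 and 68.6 CPM of SHR. Fitted as 1 gene, C4 differed by 3.29 on the log2 scale (SE 0.82, edgeR adjusted p = 0.241). These genes shared the highest level in SHR replicate 3 with C1r, C1s, C2 and Serping1.

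Strain differences of the other regulators and receptors varied in size, and edgeR called 0 of them. Cr1l, the rodent membrane regulator of C3 convertases, had 186 to 216 CPM in WKY and 191 to 312 CPM in SHR. Clusterin (Clu), a chaperone that also binds terminal complexes, had 54.3 to 130 CPM in WKY and 66.1 to 309 CPM in SHR. The mitochondrial C1q-binding protein gene C1qbp lay between 91.8 and 181 CPM. The scavenger collectin gene Colec12 had 66.2, 99.6 and 30.5 CPM in WKY and 154, 90.8 and 199 CPM in SHR. Its strains overlapped, and the log2 fold change was 1.24 (SE 0.54, edgeR adjusted p = 0.417). Thrombomodulin (Thbd) had 99.4 to 130 CPM in WKY and 59.2 to 99.2 CPM in SHR, with no overlap and an edgeR adjusted p of 0.317.

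By batch, edgeR called 4 of the 19 genes higher in batch 2 (C7, C6, C1rl and the membrane cofactor gene Cd46) and 3 lower. The shares over all genes were 21.0% higher and 22.5% lower, so these counts are near or below the background. The lower genes were Cd93, a membrane lectin (log2 fold change -4.12, SE 0.69), Itgax, an integrin chain of a C3 fragment receptor (-3.61, SE 0.77), and C5ar2, a receptor of C5a (-1.40, SE 0.41). Between strains the log2 fold change of Cd93 was -1.44 (SE 0.53, edgeR adjusted p = 0.355), lower in SHR. C5ar2 had 63.9, 59.8 and 12.2 CPM in WKY and 57.9, 62.9 and 38.7 CPM in SHR. Its strain difference of 0.50 was close to 0 without WKY replicate 3 or SHR replicate 3 (-0.03 in each) and within batch 1 (-0.04). Within each strain, 1 batch 2 library can be set against the mean of batch 1 in log2 CPM. In WKY this difference was 3.79 for C7, 1.58 for C6, 1.01 for C1rl and 1.73 for Cd46. In SHR it was 4.24, 2.12, 1.68 and 1.47 for the same genes. For Cd93, Itgax and C5ar2 it was -4.24, -4.20 and -2.33 in WKY and -2.87, -2.50 and -0.64 in SHR.

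**Figure D3:**
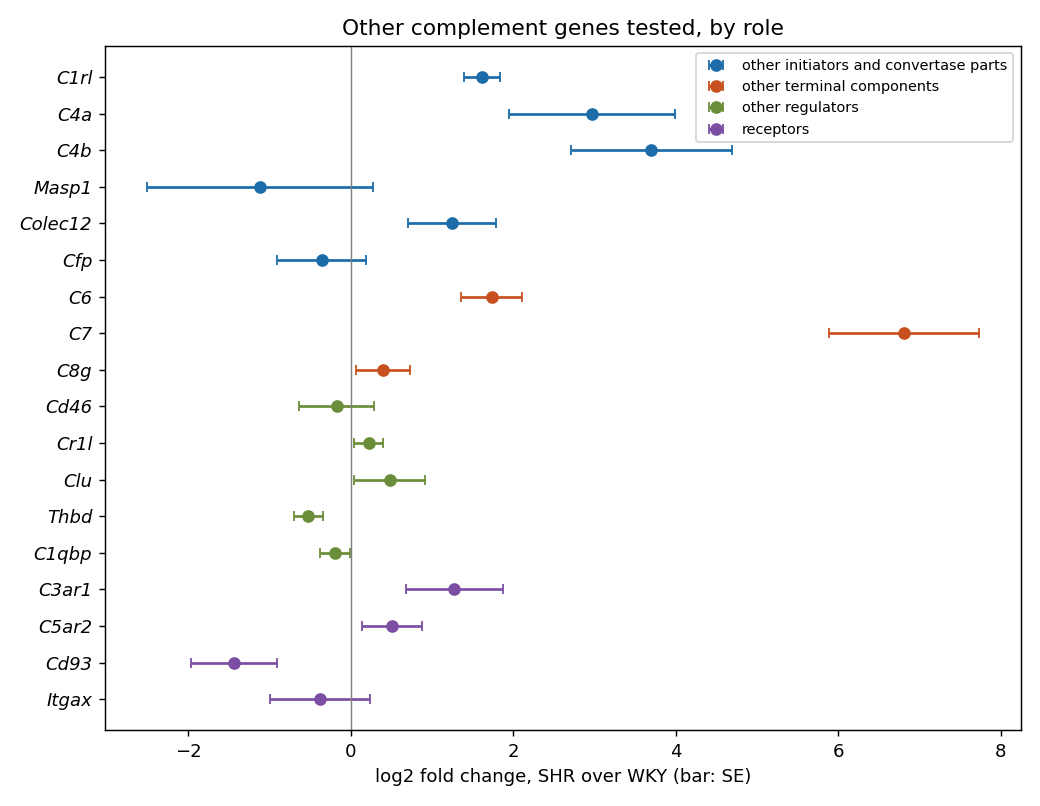
Log2 fold change of SHR over WKY with its SE for 18 of the 19 further complement genes tested, coloured by role. C7 lies farthest right at 6.81, C4a, C4b, C6 and C1rl lie between 1.62 and 3.70, and 7 genes lie below 0.

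Other cell types could hold these transcripts, and their markers were measured beside them. Of the 11 macrophage and leukocyte markers in the table, Ptprc, Adgre1, Aif1 and Laptm5 had 0 counts in every library. The list summed to 30.7 to 55.7 CPM in WKY and 28.9 to 68.0 CPM in SHR, highest in SHR replicate 3. Cd14 (14.8 to 39.3 CPM) and Cd68 (3.48 to 28.02 CPM) led that sum, while 4 to 7 of the 11 were at a count of 0 in each library. Gsn, among the 3 most abundant fibroblast markers, had 219, 889 and 858 CPM in WKY and 2600, 1459 and 11357 CPM in SHR, highest where C1r, C1s and Serping1 were highest. Col1a1, the most abundant, had 3846, 5940 and 10878 CPM in WKY and 8784, 7517 and 4560 CPM in SHR and did not share that order. Over the whole list, 8 of the 12 fibroblast markers were highest in SHR replicate 3, against 23.6% of all genes tested. All 12 had a positive strain difference, as did 5981 of all 12614 genes, and edgeR called 0 of the 12 between strains. Compared with 4.51% of all genes, 6 of the 12 markers did not overlap between strains, all higher in SHR. Among them were the matrix protein genes Dcn (8.39 to 61.5 CPM in WKY and 245 to 1307 CPM in SHR), Lum (16.8 to 69.2 and 85.8 to 599 CPM) and Dpt (0.06 to 0.74 and 15.5 to 42.6 CPM), named after their values were seen. Col3a1 had 1156 to 2216 CPM in WKY and 3011 to 3852 CPM in SHR.

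The 10 mesothelial and epithelial markers summed to 84.1 to 640 CPM in WKY and 440 to 1302 CPM in SHR, again highest in SHR replicate 3, with 1 of the 10 at a count of 0 there. Msln, the surface protein mesothelin, led this list with 61.3 to 620 CPM in WKY and 379 to 758 CPM in SHR. Upk3b, a further mesothelial marker, had 166 CPM in SHR replicate 3 and at most 23.4 CPM elsewhere. Krt7, a keratin, had 0.37 to 2.85 CPM in WKY and 57.2 to 127 CPM in SHR. The sum of the 10 smooth muscle markers was highest in WKY replicate 3, at 8580 CPM against 2223 CPM in SHR replicate 3. The 3 most abundant of them, Tagln (3043 CPM), Acta2 (3630 CPM) and Lmod1 (674 CPM), were highest in WKY replicate 3. So were Myh11, Smtn, Synpo2 and Myocd. Single markers differed, since Des (87.7 CPM), Actg2 (26.98 CPM) and Cnn1 (17.3 CPM), named after their values were seen, were highest in SHR replicate 3. The part of these cell types in the complement levels was not tested.

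**Figure D4:**
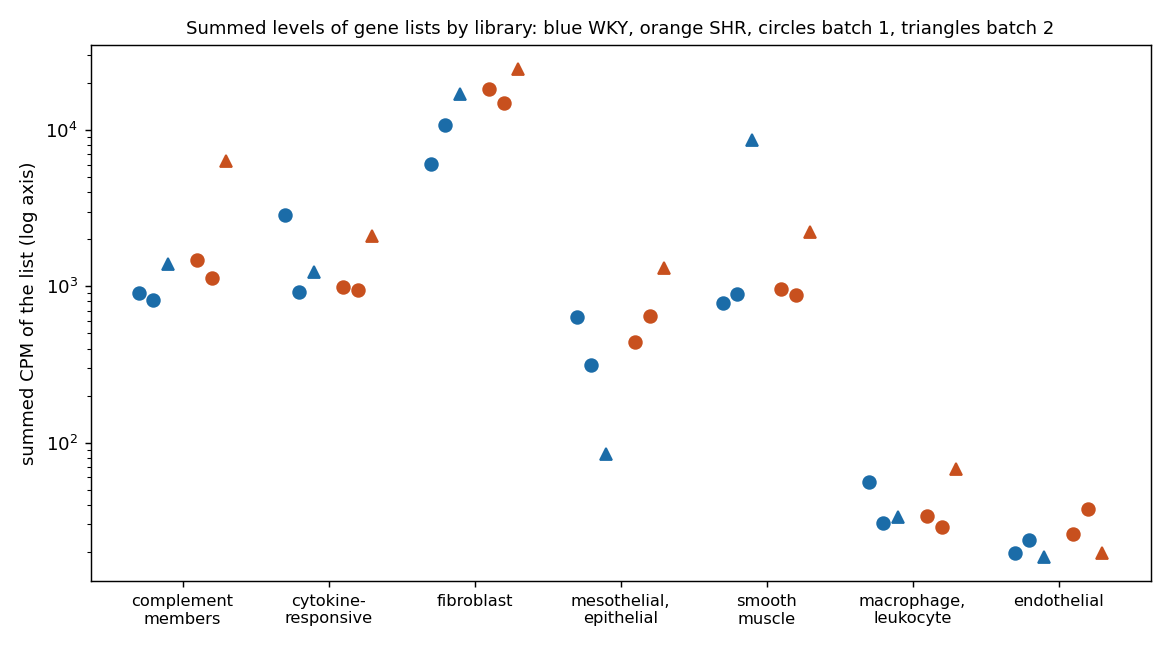
Summed CPM of each gene list by library on a log axis, with WKY in blue, SHR in orange, batch 1 as circles and batch 2 as triangles. The 9 complement genes sum to 6322 CPM in SHR replicate 3 and 816 to 1474 CPM elsewhere. The fibroblast, mesothelial and macrophage sums are also highest in that library.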

How the data were processed

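Cultured aortic cells of 3 SHR and 3 WKY libraries were sequenced. The authors deposited estimated counts per gene, not normalized; 10.3% of the counts above 0 were not whole (tolerance 0.001). The authors also deposited log2 values, whose batch means were found to be equal. Per the submitters' processing notes, the tools were RSEM 1.2.28, Bowtie2 2.4.4 and DESeq2 1.42.1, on Rnor_6.0, with no step assigned to any of them; strand and multi-copy counting are not given in the sources used here.

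Estimated counts were rounded. filterByExpr kept 12614 of 16770 genes. Strain and batch were fitted together with the edgeR 4.0.16 quasi-likelihood test (TMM scaling, robust, 3 residual degrees of freedom), in R 4.3.3. The interaction had its own fit. Tests were two-sided, with Benjamini-Hochberg adjustment over all genes tested and calls at an adjusted p below 0.05. SE is the log2 fold change divided by the root of F. Within-batch differences use log2 CPM with a prior count of 2. Fits were checked on simulated data. Alternatives used DESeq2 1.42.0, RLE scaling, no filter, no batch term, batch 1 only, left-out libraries, a replicate block and limma 3.58.1.

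Members and lists were chosen with earlier results of these data known. Named were all 9 members, further complement genes called by strain or batch or among the 8 highest in CPM, and the 3 most abundant genes of the cytokine-responsive and marker lists. Of those marker lists, only the genes a result touches are printed. A further complement gene that the rule names is not reported here. Deviations of same-numbered libraries from their strain means correlated at 0.303, 0.40 and 0.655, where replicate 3 is batch 2 in both strains. Within batch 1 the differences of replicates 1 and 2 correlated at -0.197 between strains.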

Additional observations from a re-analysis of the deposited data

Results flagged for a closer look

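Among the 4 libraries of batch 1, 2 genes had a library far from the others by Dixon's test at the 95% level, which flags about 1 in 20 groups by chance; 9 genes were examined. C3 stood at 140 CPM in WKY replicate 1, where the gap to the next library took up 0.996 of the range, above the critical value. Cd55 stood at 151 CPM in SHR replicate 2, with a ratio of 0.93. These 4 libraries are of both strains.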

How the results depend on the processing

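Of the members, 0 were called by strain under RLE scaling, without the low-count filter, without the batch term, within batch 1, with each library left out, with limma on the deposited log2 values and with the replicate block (0 of 8, and 3 at an unadjusted p below 0.05); DESeq2 called 4. With the block 6 of all 12614 genes were called. Of all 16193 genes fitted, DESeq2 called 719 by strain and 6541 by batch. Batch calls over all genes were 4807 of 12878 without WKY replicate 1 and 4465 of 12956 without WKY replicate 2. Among further complement genes, strain calls numbered 5 with DESeq2 and 0 to 2 with a library left out (2 without WKY replicate 2), and batch calls 13 with DESeq2 and 3 to 7 with a library left out (4 without SHR replicate 2, 3 without SHR replicate 3). Batch calls among members ranged from 1 to 5 with a library left out, 1 being without SHR replicate 3. For the interaction, DESeq2 called 2 members. Fits with a batch 1 library left out, an alternative added after seeing the data, had 1 residual degree of freedom. The C3 interaction was 7.02 without WKY replicate 1 and 14.4 without WKY replicate 2. Either loss leaves 1 WKY library in batch 1 and removes the spread between these 2 libraries, so no calls are given for these fits.

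Directions turned in 14 alternatives, none of them called. With a library left out, the strain difference of C3 ran from -6.08 (without either batch 2 library) to 2.84 (without WKY replicate 1), that of Cd55 from -0.34 (without SHR replicate 2) to 0.645 (without either batch 2 library), that of Cd46 from -0.62 to 0.085 and that of Itgax from -0.85 to 0.32, with 0.09 without SHR replicate 2. C5ar2 ran from -0.03 (-0.0320 without WKY replicate 3 and -0.0317 without SHR replicate 3) to 0.76, and was -0.0371 in batch 1. With the replicate block C3 was 0.35. The batch difference ran from -8.10 (without SHR replicate 3) to 5.28 for C3, with -0.997 and -0.82 without SHR replicates 1 and 2, from -6.58 (without SHR replicate 3) to 3.475 for Cfb and from -1.44 to 0.70 for Colec12. The causes were not tested. Low counts limit Cfd, Cfb and, in 4 libraries, C3.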
